A study of Homo sapiens with 6 samples.

Results

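The HOX clusters are 4 groups of neighbouring homeobox genes, HOXA, HOXB, HOXC and HOXD, and their expression was described in SK-N-BE (2) neuroblastoma cells after knockdown of Prp19. The members were all protein-coding genes whose GENCODE 29 symbol is HOX followed by a cluster letter and a number. This gave 39 genes of the 58302 gene entries in each file: 11 HOXA, 10 HOXB, 9 HOXC and 9 HOXD genes. SK-N-BE (2) is an established, MYCN-amplified neuroblastoma line. The study had 6 samples of this line, 3 transfected with a control siRNA (NC) and 3 with siRNA against Prp19 (siPrp19), with a transfection time of 72 h in the labels and a shorter time in the study's methods. Each group carries the replicate numbers 1 to 3. The study chose 1 siRNA against Prp19 for its later assays, so an effect of the siRNA sequence itself cannot be told apart from loss of Prp19. Levels are FPKM, fragments per kilobase of exon with a scaling for each library. They are values per length, so levels of different genes are compared on this scale.

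HOX proteins are homeodomain transcription factors that give cells their position along the body axis. In each cluster the genes lie in the order in which they are used, with low paralogue numbers active towards the head and high numbers towards the tail, and genes with the same number in different clusters are paralogues. They bind DNA together with TALE homeodomain cofactors of the PBX, MEIS and PKNOX families. Trithorax (MLL) complexes keep active HOX genes on and Polycomb complexes keep inactive ones off, while retinoic acid opens the clusters from their anterior end. Neuroblastoma arises from the sympathoadrenal lineage of the trunk neural crest. Prp19, encoded by PRPF19, is a core protein of the spliceosome and a ubiquitin ligase.

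PRPF19 measured 53.1, 53.1 and 64.9 FPKM in the NC samples and 21.8, 28.5 and 33.6 FPKM in the siPrp19 samples of the same numbers. All 3 siPrp19 samples lay below all NC samples, and their mean was 49.0% of the NC mean. Depth was 19058784 to 24181789 reads on annotated genes per sample. All 10 adrenergic neuroblastoma markers averaged 1 FPKM or more, with MYCN at 1016 FPKM and PHOX2A, a noradrenergic transcription factor, at 383 FPKM. Of 10 mesenchymal and fibroblast markers, 8 reached 1 FPKM, and VIM (vimentin) had a mean of 199 FPKM and TWIST1 a mean of 141 FPKM. The 5 haematopoietic markers summed to 0.506 to 0.935 FPKM per sample. In bulk samples, fewer cells with a transcript and less of it per cell cannot be told apart.

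Transcripts came from the HOXC cluster and, less, from the HOXD cluster. HOXC, on chromosome 12, gave 75.9 to 85.4% of the summed HOX FPKM of a sample, and HOXD, on chromosome 2, gave 14.3 to 24.0%. HOXA, on chromosome 7, held 16 reads over all 6 samples and HOXB, on chromosome 17, held 26, against 16345 for HOXC and 3905 for HOXD. Of the 39 genes, 9 averaged 1 FPKM or more, 5 lay between 0.1 and 1 FPKM, 12 were above 0 with a mean under 0.1 FPKM and 13 had no read in any sample. The level of the last 13 was limited by depth, since 3 reads would have corresponded to 0.0322 to 0.133 FPKM per sample, depending on the gene's length and the sample.

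**Figure D1:**
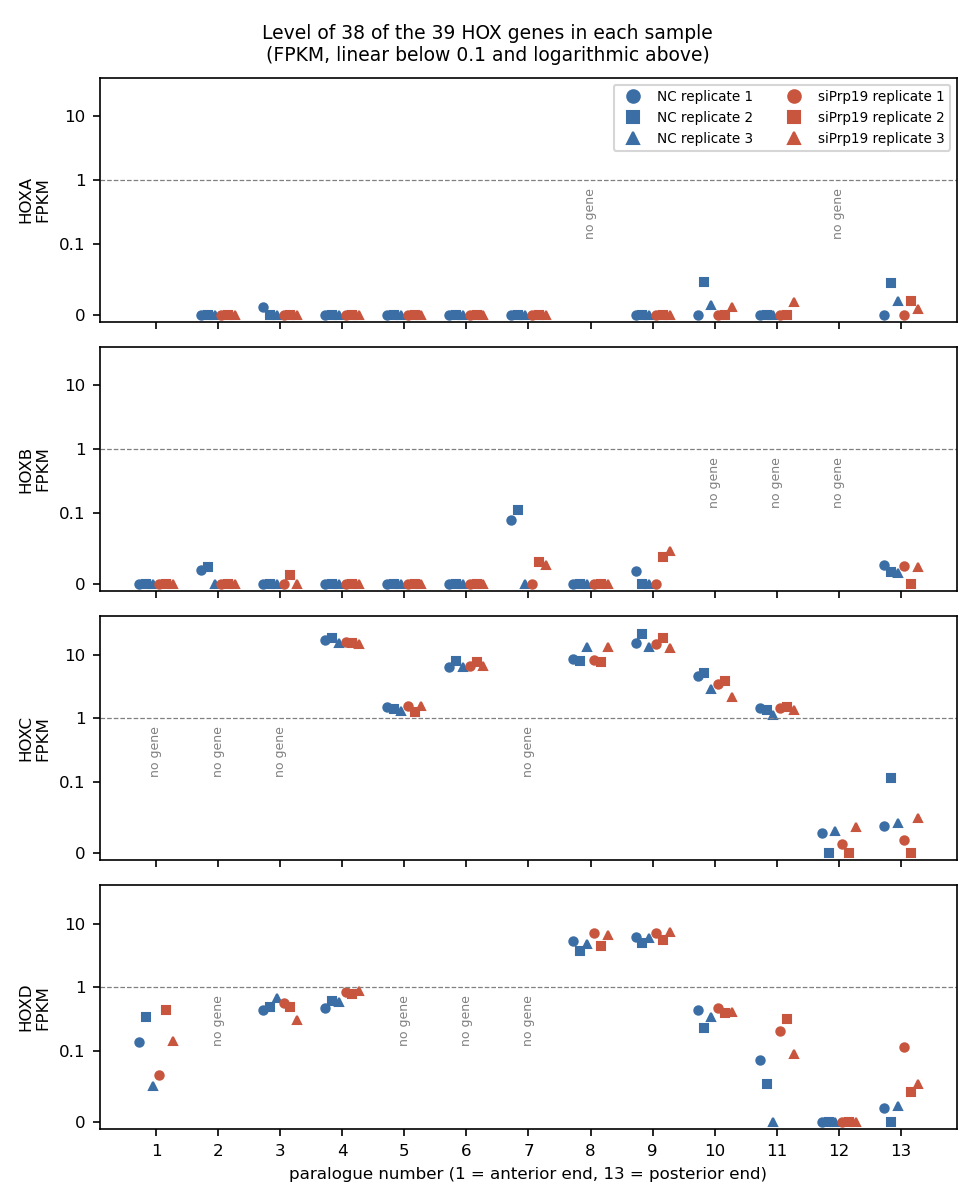
FPKM of 38 of the 39 HOX genes in each of the 6 samples, with one panel per cluster, paralogue number on the x axis and a scale that is linear below 0.1 and logarithmic above; blue points are NC, red points are siPrp19, and the dashed line marks 1 FPKM. Points above 1 FPKM are found in the HOXC panel from paralogue 4 to 11 and in the HOXD panel at paralogues 8 and 9.

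CpG was found at the start sites of silent and of expressed members. A window of 250 bases before to 50 bases after the start was given by RefSeq (GRCh38.p14) for 20 of the 39 genes, in 26 distinct windows, since HOXA3 and HOXA10 have several and HOXC4 and HOXC5 share 1. The 26 windows held 0 to 44 CpG dinucleotides with a median of 22.5, against a median of 14 over all 34943 distinct windows of that length in RefSeq. Of the 26, 16 are HOXA, 1 HOXB, 1 HOXC and 8 HOXD windows. Only the windows of HOXD8 and of HOXC4 and HOXC5 belong to genes averaging 1 FPKM or more, so the median mostly describes low and silent genes. Below are the window of HOXD8, which was expressed and higher with siPrp19 in each pair, the window that HOXC4 and HOXC5 share, and the window of HOXA9, which had no read. Capitals mark CpG.
HOXD8, chr2:176129455-176129754, plus strand: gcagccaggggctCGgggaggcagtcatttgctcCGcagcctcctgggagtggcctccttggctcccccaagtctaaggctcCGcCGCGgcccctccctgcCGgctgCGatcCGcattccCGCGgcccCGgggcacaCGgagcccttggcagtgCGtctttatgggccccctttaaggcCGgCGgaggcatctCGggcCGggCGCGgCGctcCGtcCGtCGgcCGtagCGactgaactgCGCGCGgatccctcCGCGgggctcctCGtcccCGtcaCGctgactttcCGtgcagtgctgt
HOXC4 and HOXC5, chr12:54016638-54016937, plus strand: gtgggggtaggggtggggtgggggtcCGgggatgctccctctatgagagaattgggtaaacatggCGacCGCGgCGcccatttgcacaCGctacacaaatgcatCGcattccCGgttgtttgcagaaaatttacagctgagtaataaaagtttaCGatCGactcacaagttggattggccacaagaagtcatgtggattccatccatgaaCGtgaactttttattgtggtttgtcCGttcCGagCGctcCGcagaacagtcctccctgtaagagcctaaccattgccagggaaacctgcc
HOXA9, chr7:27165488-27165787, minus strand: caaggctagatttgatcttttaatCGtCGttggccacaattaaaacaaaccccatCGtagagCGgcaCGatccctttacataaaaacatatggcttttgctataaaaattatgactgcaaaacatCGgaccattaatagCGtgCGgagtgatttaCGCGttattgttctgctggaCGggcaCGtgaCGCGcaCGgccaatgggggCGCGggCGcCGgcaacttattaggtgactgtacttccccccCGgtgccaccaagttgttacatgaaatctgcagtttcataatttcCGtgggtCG
The HOXD8 window held 34 CpG, the HOXC4 and HOXC5 window 15 and the HOXA9 window 22. The window with the most, 44, was that of HOXA13, which had 9 reads in all. The PBX-HOX motif TGATTNAT, searched on both strands, was found in 2 of the 26 windows, those of HOXA2 and HOXD11, and in 2.82% of all windows. A TATAAA box, searched on both strands, was found in 5 of the 26 windows and in 11.6% of all windows.

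Along HOXC the level did not fall in a line from the anterior to the posterior genes. HOXC4, the most anterior gene of the cluster (chr12:54016931-54056030), had 16.7, 18.2 and 14.9 FPKM in NC and 15.6, 15.0 and 14.7 FPKM in siPrp19. The neighbouring HOXC5 (chr12:54032853-54035358), which lies inside the HOXC4 span, had 1.28 to 1.59 FPKM. HOXC5 shares 59.9% of its exonic bases with AC012531.2 and a non-coding entry also named HOXC5, both on its strand. Both had no read in any sample, so no reads over the shared bases were assigned to them. Part of the HOXC5 reads could have been left uncounted, and its level could be too low. HOXC6 (chr12:53990624-54030823) had 6.33 to 8.0 FPKM and was the third most anterior gene.

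HOXC8 and HOXC9, genes of the thoracic part of the axis, were among the highest. HOXC8 (chr12:54009106-54012362) had 8.54, 7.79 and 13.3 FPKM in NC and 8.18, 7.59 and 13.3 FPKM in siPrp19. The samples numbered 3 were the high ones in both groups. HOXC9 (chr12:53994895-54003337) had 15.4, 20.7 and 13.1 FPKM in NC and 14.8, 18.1 and 12.8 FPKM in siPrp19, where the samples numbered 2 were high in both groups. HOXC4 and HOXC9 had means of 15.9 and 15.8 FPKM over the 6 samples and their ranges overlapped, so their order is not resolved.

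Towards the posterior end the levels were lower. HOXC10 (chr12:53985065-53990279) had 4.68, 5.09 and 2.91 FPKM in NC and 3.47, 3.90 and 2.16 FPKM in siPrp19, and HOXC11 (chr12:53973126-53977643) had 1.15 to 1.53 FPKM. The ranges of HOXC10 and HOXC11 did not overlap, while those of HOXC5 and HOXC11 did. HOXC12 and HOXC13, the posterior end of the cluster, had 8 and 13 reads over all samples. Expression of HOXC therefore ended, at this depth, between HOXC11 and HOXC12.

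In HOXD the expressed genes were a neighbouring pair. HOXD8 (chr2:176129694-176132695) had 5.32, 3.72 and 4.85 FPKM in NC and 7.05, 4.54 and 6.58 FPKM in siPrp19. HOXD9 (chr2:176122720-176124937) had 6.18, 4.98 and 5.95 FPKM in NC and 7.04, 5.63 and 7.33 FPKM in siPrp19. Each of them lay above its own NC partner in every pair, and the 2 groups overlapped for both genes. No other annotated gene shares exonic bases with HOXD8 or HOXD9.

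The genes on either side of this pair were low. HOXD10 had 0.232 to 0.474 FPKM, HOXD11 0 to 0.319, HOXD4 0.470 to 0.881, HOXD3 0.307 to 0.684 and HOXD1 0.0512 to 0.438 FPKM. HOXD12 had no read and HOXD13 had 13. HOXD4 shares 80.5% of its exonic bases with the overlapping gene AC009336.2, HOXD3 62.2% with genes on its strand, and HOXD1 58.1% with genes on the other strand, including HAGLR, so their levels are uncertain.

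Summed over clusters, the levels peaked at paralogue groups 4, 8 and 9. Group 9 had a sum of 19.1 to 25.6 FPKM per sample, almost all from HOXC9 and HOXD9. Group 4 had 15.5 to 18.8 FPKM, nearly all from HOXC4, and group 8 had 11.5 to 19.9 FPKM from HOXC8 and HOXD8. Groups 5 and 11 stayed between 1.15 and 1.85 FPKM. All of the group 5 sum came from HOXC5, so it could be too low because of the shared exonic bases. Groups 6 and 10 had 6.33 to 8.0 and 2.58 to 5.37 FPKM. Group 7, which has no HOXC or HOXD gene in human, summed to at most 0.111 FPKM, and groups 2, 3, 12 and 13 each stayed under 1 FPKM in every sample.

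No HOX gene passed the main test for a change with siPrp19. The test was limma on log2(FPKM + 0.1), with no replicate block and Benjamini-Hochberg adjustment over the 14462 genes averaging 1 FPKM or more. It called 0 of the 9 tested HOX genes and 0% of all genes at an adjusted p under 0.05. PRPF19 itself, at 49.0% of its NC mean, was among the genes not called. At an unadjusted p under 0.05 the main test called 0 of 9 HOX genes and 1.56% of all genes. The median log2 difference, siPrp19 minus NC, was 0.034 over the 9 genes and -0.004 over all genes tested. The 9 differences ran from -0.40 for HOXC10 to 0.37 for HOXD8, with standard errors of 0.12 to 0.30 and an adjusted p of 0.9999 for each of them in limma. An exact two-sided permutation test of 3 against 3 cannot give a p under 0.1, and it gave 0.3 for HOXC4, HOXC10, HOXD8 and HOXD9 and 0.5 to 0.8 for the other 5.

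**Figure D2:**
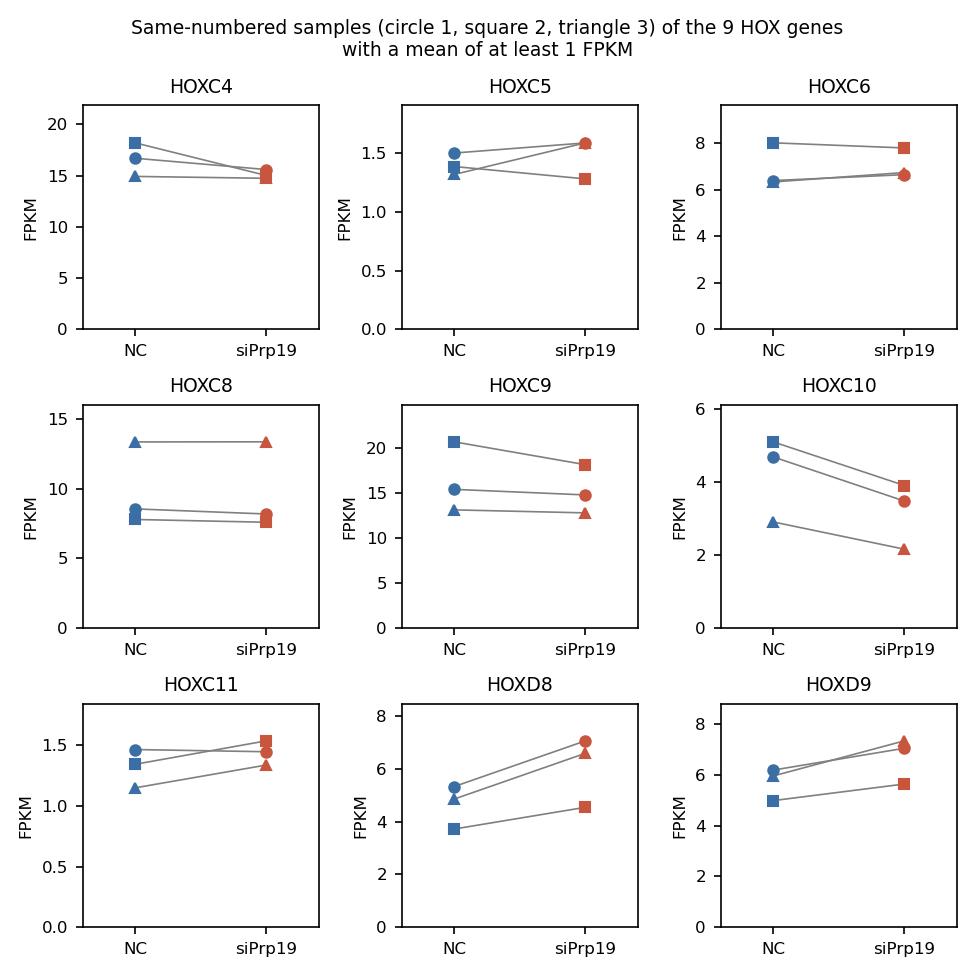
FPKM (y axis, from 0) of the 9 tested HOX genes in NC and siPrp19; grey lines join samples with the same replicate number. All 3 lines slope up for HOXD8 and HOXD9 and down for HOXC10, while the 3 lines of HOXC8 are nearly level, with that of replicate 3 above the others.

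Several HOX genes varied more between replicate numbers than within pairs. The log2 range within a group was 0.78 (NC) and 0.81 (siPrp19) for HOXC8, whose largest difference within a pair was 0.06. For HOXC9 the ranges were 0.65 and 0.50 and the largest pair difference was 0.19. For HOXC10 they were 0.81 and 0.85 and the largest pair difference was 0.42. Over the 9 genes only HOXC5 in NC and HOXC4 and HOXC11 in siPrp19 had a range within the group smaller than the largest pair difference. The samples numbered 3 held the highest HOXC8 and the lowest HOXC9 and HOXC10 levels of both groups.

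The within-pair differences follow for the genes with the same sign in all pairs. HOXD8 differed by 0.40, 0.28 and 0.43 on the log2 scale in pairs 1, 2 and 3, always higher with siPrp19. HOXD9 differed by 0.19, 0.17 and 0.30, also always higher. HOXC10 differed by -0.42, -0.38 and -0.41, always lower. HOXC4 and HOXC9 were lower in each pair as well, by up to -0.28 and -0.19. HOXC5, HOXC6, HOXC8 and HOXC11 had pairs in both directions. Thus 2 of 9 genes were higher in 3 of 3 pairs and 3 of 9 were lower, against 19.2% and 21.3% of all genes tested. For none of the 9 did the NC and siPrp19 values fail to overlap, while 5.61% of all genes had groups that did not overlap.

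With the replicate number as a block, limma gave HOXD8 a log2 difference of 0.37 ± 0.07 (SE), with a 95% interval of 0.20 to 0.54, an unadjusted p of 0.0024 and an adjusted p of 0.196. HOXC10 gave -0.40 ± 0.07, with an interval of -0.58 to -0.22, an unadjusted p of 0.0023 and an adjusted p of 0.196 by limma. HOXD9 gave 0.22 ± 0.06 with an interval of 0.06 to 0.38 and a limma adjusted p of 0.231. The other 6 genes had unadjusted p-values above 0.1 in the blocked limma fit. So 3 of 9 HOX genes had an unadjusted p under 0.05 in this fit, against 15.7% of all genes, and 0 of 9 had an adjusted p under 0.05, against 0% of all genes.

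Reads recovered from the FPKM gave 1 call. In limma voom on these reads with the replicate block, HOXD8 differed by 0.40 ± 0.11 with an adjusted p of 0.0155, and 7.82% of all genes were called. HOXC10 differed by -0.40 ± 0.13 with a voom adjusted p of 0.0581, and HOXD9 by 0.24 ± 0.12 with a voom adjusted p of 0.223. The HOXD8 call was made in this fit alone: with the block on genes averaging 5 FPKM or more its limma adjusted p was 0.0741, and with voom and no block it was 0.9999.

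**Figure D3:**
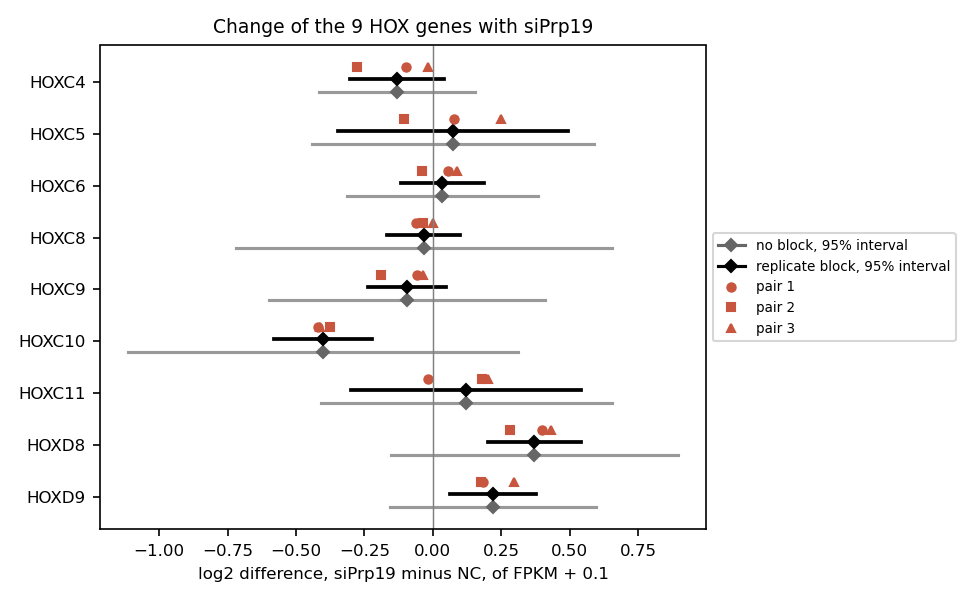
Log2 difference of FPKM + 0.1, siPrp19 minus NC, for the 9 tested HOX genes: diamonds are limma estimates with 95% intervals, grey without and black with the replicate block, and red symbols are the 3 pairs. The blocked intervals of HOXD8, HOXD9 and HOXC10 leave out 0, while every unblocked interval includes it.

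The remaining 6 genes had small differences. HOXC4, at 16.6 ± 1.64 FPKM (SD, n = 3) in NC and 15.1 ± 0.436 in siPrp19, differed by -0.13 on the log2 scale, with a blocked interval of -0.30 to 0.04. HOXC9, at 16.4 ± 3.87 and 15.2 ± 2.70 FPKM, differed by -0.09, with an interval of -0.24 to 0.05. HOXC8, at 9.89 ± 3.01 and 9.70 ± 3.16 FPKM, differed by -0.03, with an interval of -0.17 to 0.10. HOXC6, at 6.91 ± 0.952 and 7.05 ± 0.637 FPKM, differed by 0.03, with an interval of -0.12 to 0.19. The intervals of the 2 lowest tested genes were wider, -0.35 to 0.49 for HOXC5 and -0.30 to 0.54 for HOXC11. These blocked intervals do not reach a 2-fold change in either direction.

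Of the HOXD genes under 1 FPKM, which were not tested, 4 were higher with siPrp19 in each pair. HOXD4 had 15, 16 and 17 reads in NC and 28, 24 and 32 in siPrp19, or 0.559 ± 0.0792 against 0.837 ± 0.0465 FPKM. HOXD10 had 26, 11 and 18 reads in NC and 29, 22 and 27 in siPrp19. HOXD11 had 4, 2 and 0 reads against 10, 14 and 5, and HOXD13 had 1, 0 and 1 reads against 6, 2 and 3. Each siPrp19 library held more reads on genes than its NC partner, so reads overstate these rises. In FPKM, HOXD10 had 0.338 ± 0.105 in NC and 0.424 ± 0.0439 in siPrp19. HOXD11 had 0.0469 ± 0.0439 and 0.208 ± 0.112 FPKM, and HOXD13 had 0.0143 ± 0.0125 and 0.0716 ± 0.0405 FPKM. Of the 5 HOXD genes with a mean of 0.1 to 1 FPKM, 3 were higher with siPrp19 in 3 of 3 pairs, against 12.1% of all genes in that range, and HOXD13 was as well, against 4.17% of genes above 0 and under 0.1 FPKM. HOXD3, at 0.540 ± 0.128 FPKM in NC and 0.460 ± 0.137 in siPrp19, and HOXD1 had pairs in both directions, and HOXD12 had no read. HOXD10 and HOXD11 share exonic bases with each other, so they are not independent counts.

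Summed over its 9 genes, HOXD had 13.1, 10.4 and 12.5 FPKM in NC and 16.4, 12.7 and 15.8 FPKM in siPrp19. The siPrp19 value was higher in each pair, by 0.32, 0.28 and 0.34 on the log2 scale, and the groups overlapped. HOXC summed to 54.7, 62.6 and 53.1 FPKM in NC and 51.7, 55.2 and 52.8 FPKM in siPrp19, with log2 pair differences of -0.08, -0.18 and -0.01. The HOXD share of all HOX FPKM was 19.3, 14.3 and 19.0% in NC and 24.0, 18.6 and 23.0% in siPrp19. The sum over all 39 genes was 65.7 to 73.3 FPKM in NC and 68.0 to 68.7 FPKM in siPrp19. These sums are descriptions and carry no test. HOXD8 and HOXD9, with means of 5.34 and 6.18 FPKM, made up most of each HOXD sum. The HOXD differences thus largely restate those of HOXD8 and HOXD9.

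**Figure D4:**
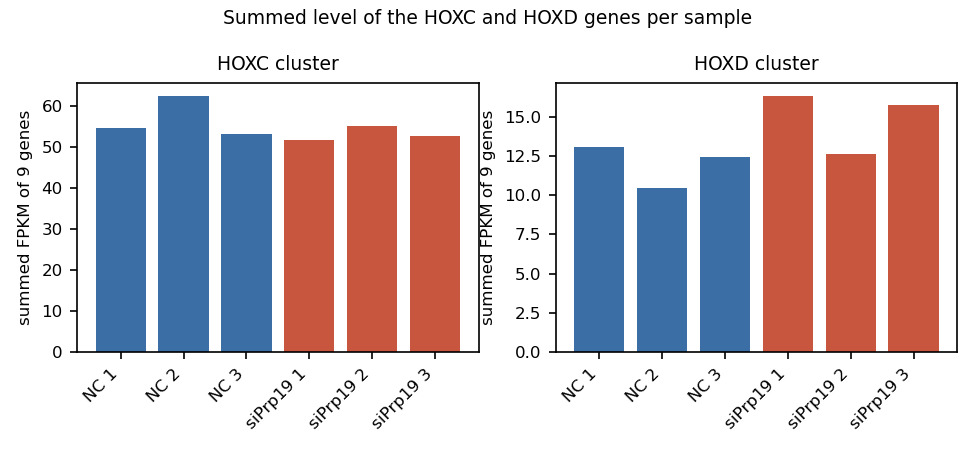
Summed FPKM (y axis, from 0, with a scale of its own in each panel) of the 9 HOXC genes (left) and the 9 HOXD genes (right) in each sample, blue for NC and red for siPrp19. The HOXD bar of each siPrp19 sample is taller than that of the NC sample with the same number, and the lowest siPrp19 bar, 12.7 FPKM, is below the tallest NC bar, 13.1 FPKM.

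The non-coding genes of the clusters followed the same division. Of 14 such genes in HOXA and HOXB, 13 had no read, HOXA11-AS had 3, and HOTTIP and HOTAIRM1 were among those with none. In HOXC, HOTAIR, a long non-coding RNA transcribed from the other strand between HOXC11 and HOXC12, had 4.30, 2.31 and 3.98 FPKM in NC and 3.74, 1.44 and 3.39 FPKM in siPrp19. It was lower in each pair, by -0.20, -0.65 and -0.22 on the log2 scale, with a blocked limma adjusted p of 0.279. The only other HOXC non-coding gene with a mean above 1 FPKM, HOXC-AS1, had 3.81 to 6.39 FPKM with pairs in both directions. In HOXD, HAGLR, antisense to HOXD1 and HOXD3, had 2.35 to 6.27 FPKM and HOXD-AS2 had 0.774 to 1.45 FPKM, also with pairs in both directions. The labels name a library kit without saying that it keeps strand, so reads of antisense pairs cannot be told apart.

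Each cluster also carries microRNA genes, and the miR-196 and miR-10 families among them are known to repress HOX transcripts. The mature miR-196 sequences, from RefSeq, are shown with the seed (bases 2 to 8) in capitals, since miR-196a-5p of HOXB and HOXC and miR-196b-5p of HOXA share a seed.
hsa-miR-196a-5p: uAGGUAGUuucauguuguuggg
hsa-miR-196b-5p: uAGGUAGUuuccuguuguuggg
MIR196B, MIR196A1 and MIR10A, in the silent clusters, had no read, and MIR196A2 in HOXC had 2 reads, both in NC replicate 1. MIR10B, between HOXD8 and HOXD4, had 7 to 16 reads per sample. Libraries were selected for fragments longer than a microRNA, so these are reads counted at the hairpin genes and say nothing of the mature level. MIR10B lies inside the HOXD3 span and MIR196A2 inside the HOXC6 span, each on the same strand. Reads of a longer transcript there cannot be told apart from those of the hairpin gene.

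Among the tested members, the miR-196 seed match ACTACCT occurred in the 3′UTR of HOXC8 alone, where GENCODE 29 shows 2. Over all 39 HOX genes, 8 had this match, against 6.04% of 19128 3′UTRs. For 3′UTRs of a length like that of HOXC8 the miR-196 share was 4.45%. The seed match of miR-10a-5p, ACAGGGT, occurred in 3 of the 39 HOX genes and in 0 of the 9 tested, against 10.6% of all 3′UTRs. The miR-196 sites of HOXC8 are shown with the match in capitals.
HOXC8 site 1, chr12:54011494-54011516, plus strand: acactcacaactctaACTACCTg
HOXC8 site 2, chr12:54012230-54012252, plus strand: ataaatctttaacatACTACCTa
A match is a description of sequence and shows no binding.

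Coding genes beside the silent clusters were not all silent. Beside means the nearest non-HOX coding genes outside a cluster, which lay 8978 bp (EVX2) to 1021656 bp (HNRNPA3) away. SNX10, SKAP2 and EVX1 beside HOXA and SKAP1 and TTLL6 beside HOXB had means of at most 0.214 FPKM. HIBADH, also beside the silent HOXA cluster, had a mean of 13.7 FPKM, and SNX11 and CALCOCO2, beside HOXB, had 5.47 and 9.70 FPKM. Beside HOXD, MTX2, a mitochondrial outer membrane protein gene, was higher with siPrp19 in each pair (log2 differences of 0.19, 0.24 and 0.11), while LNPK and HNRNPA3 were lower in each pair. Over all genes tested, 19.2% were higher and 21.3% lower in 3 of 3 pairs. Beside HOXC, ATP5MC2, a subunit of the ATP synthase, was higher in each pair and passed the voom test with the block (log2 0.18, adjusted p = 0.0296). EVX1 and EVX2, homeobox genes at the posterior ends of HOXA and HOXD, were at 0 and at a mean of 0.005 FPKM.

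The partners and regulators of HOX genes were expressed. Of 9 TALE cofactors, 8 reached 1 FPKM, with PBX2 at a mean of 22.7 FPKM and MEIS2 at 14.2 FPKM. Of 11 trithorax genes all 11 were tested, of 10 PRC2 genes all 10, of 11 PRC1 genes 10, and of 9 boundary and cohesin genes all 9. CRABP2, which carries retinoic acid into the nucleus, had 124 FPKM, and 8 of 16 retinoid pathway genes were tested. The 6 ParaHox and CDX genes, direct activators of posterior HOX genes among them, summed to 0.0913 to 0.368 FPKM per sample, and CDX1 had the highest mean of them, 0.212 FPKM. Of 6 posterior and caudal inducers only GDF11 (8.73 FPKM) and LIN28B (5.89 FPKM) were tested.

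None of these lists held a gene at an adjusted p under 0.05 in limma with or without the block. In voom with the block, which called 7.82% of all genes, the TALE list had 1 gene higher and none lower of 8, the trithorax list 1 higher of 11, and the PRC2 list 1 higher and 1 lower of 10. The retinoid list had 1 higher of 8 and the inducer list 1 higher of 2, while the PRC1 and cohesin lists had none. MEIS3, a cofactor, rose from 8.15 ± 1.44 to 9.68 ± 2.00 FPKM (voom with the block, adjusted p = 0.0186). KMT2B, a histone H3K4 methyltransferase, rose from 7.55 ± 1.37 to 8.69 ± 1.09 FPKM (voom with the block, adjusted p = 0.0185). EZH1, a PRC2 methyltransferase, rose from 8.32 ± 1.67 to 10.3 ± 1.74 FPKM (voom adjusted p = 0.00107), and MTF2, a PRC2 accessory protein, fell from 9.99 ± 0.884 to 8.49 ± 1.78 FPKM (voom adjusted p = 0.0344). EZH2, the main methyltransferase of PRC2, had 25.6 ± 3.01 FPKM in NC and 23.4 ± 2.25 FPKM in siPrp19 and was not called.

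RXRB, a retinoid receptor, rose from 18.3 ± 2.18 to 21.7 ± 4.23 FPKM in voom with the block. GDF11, a ligand that promotes posterior HOX expression in the embryo, rose from 8.09 ± 1.76 to 9.37 ± 2.10 FPKM in the same fit. The other genes chosen by level or by size of change in these lists were not called: PBX4, PSIP1, DPY30, RBBP4, RING1, PCGF2, RNF2, PHC3, RAD21, SMC3, STAG1, CRABP1, STRA6 and LIN28B. The log2 medians of the tested genes were 0.01 for TALE cofactors, 0.03 for trithorax, -0.06 for PRC2, 0.04 for PRC1 and 0.01 for boundary and cohesin genes. For the retinoid pathway the median was 0.04. The median of all genes tested was -0.004.

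**Figure D5:**
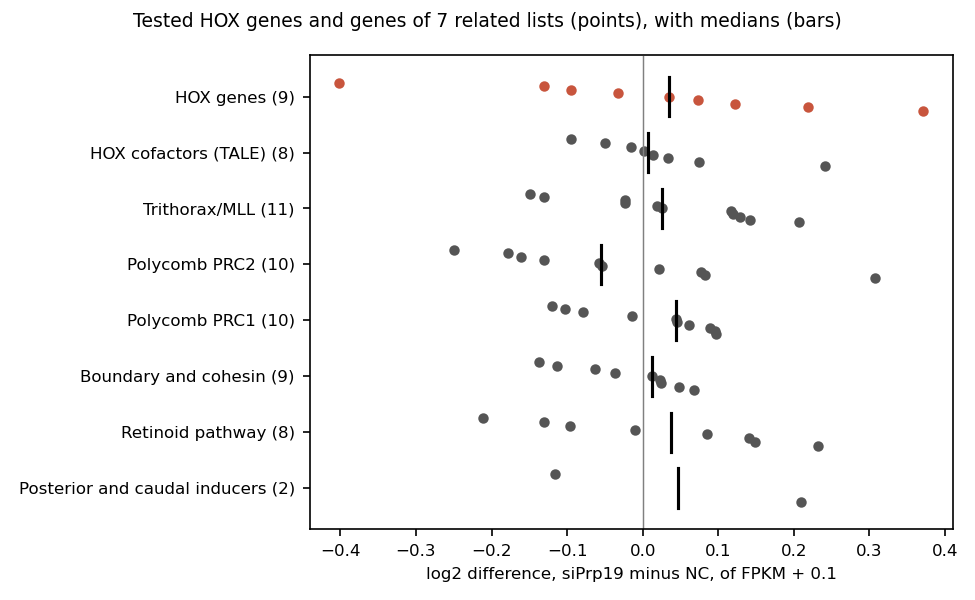
Log2 difference of FPKM + 0.1, siPrp19 minus NC (x axis), of the tested HOX genes (red) and of the tested genes of 7 related lists (grey), with the number of genes in brackets and the median as a black bar. The medians lie between -0.06 and 0.05, and the HOX genes run from -0.40 to 0.37.

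Markers of cell state were set beside the HOX values. PHOX2A had 373 ± 80.6 FPKM in NC and 392 ± 62.5 FPKM in siPrp19, and MYCN had 992 ± 161 and 1040.2 ± 214 FPKM, and neither was called by voom with the block. Of 8 tested mesenchymal and fibroblast markers, 0 were higher and 3 were lower in that fit, against 7.82% of all genes called in either direction: SNAI2, named after its value was seen, FN1 (fibronectin) at 49.8 ± 19.9 and 39.1 ± 15.7 FPKM and YAP1, a transcriptional coactivator, at 1.59 ± 0.374 and 0.814 ± 0.332 FPKM. The summed level of the 10 mesenchymal and fibroblast markers was 415 to 534 FPKM in NC and 416 to 497 FPKM in siPrp19. Their part in the HOX differences was not tested.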

How the data were processed

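RNA of 6 SK-N-BE (2) samples was sequenced, 3 NC and 3 siPrp19. The authors deposited 1 table of FPKM values per sample, made with HISAT2 2.0.5 and featureCounts 1.5.0-p3 on hg38 per the submitters' processing notes. The strand setting and the treatment of overlapping genes are not given in the sources used here. Values were rescaled with median-of-ratios size factors and tested on log2(FPKM + 0.1) with limma 3.58.1 (R 4.3.3), with a trend, over genes averaging 1 FPKM or more. The size factor was 1.007 in every sample. The deposited values were thus already even on this scale, and the rescaling changed no comparison between samples. The study's methods name a count test of the 2 groups. As the deposited values are FPKM, the main test here was on the log scale, and voom on recovered reads was an alternative. Fold changes on this scale understate those of low genes.

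Reads were recovered by dividing the FPKM by the value of 1 read for the exon length in GENCODE 29. For 96.0% of genes above 0, and for all 39 HOX genes, they came out whole in all samples within a tolerance of 0.1. Rounded reads were used for depth and for voom. Same-numbered samples deviated together, with correlations of 0.38, 0.57 and 0.64. The numbers were therefore taken as pairs in the pair differences and the blocked fits, but not in the main test. The study names its replicates biological. The limma tests on log2(FPKM + 0.1), with and without the block, were checked on simulated data, and voom was not. The HOX genes, lists and rule for named genes (all members, and of each list the highest 2 and the most changed 2) were chosen with earlier results of these data known. Some single-gene results are not reported here.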

Additional observations from a re-analysis of the deposited data

How the results depend on the processing

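No HOX gene and no gene was called by limma without the replicate block under a pseudocount of 1, no filter, a minimum mean of 5 FPKM, TPM, quantile normalization, voom on recovered reads, or with any of the 6 samples left out. The block with that minimum called 124 genes, with 0 HOX genes, and their share of the genes tested is not given here. Voom with the block called 1128 of 14432 genes (7.82%), with 1 HOX gene, HOXD8, at a log2 difference of 0.40. HOX genes at an unadjusted p under 0.05 numbered 0 without the block, 3 with the replicate block and with voom and the block, 2 with the block at a minimum mean of 5 FPKM, and 3 with the block on TPM, with quantile normalization or with no filter. The last 3 were chosen after seeing the data. Without each sample in turn this number ran from 0 to 1, and the 1 was HOXD8 without siPrp19 replicate 2 (unadjusted limma p). HOXD8 was the only HOX gene at an adjusted p under 0.05 in any of these fits. All calls of other genes at that level came from fits with the block. HOXC5, HOXC10 and HOXC11 have no value at that minimum.

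Leaving out a sample turned the direction of 3 genes whose differences were small. HOXC6 ran from -0.038 to 0.144, HOXC8 from -0.28 to 0.20 and HOXC9 from -0.241 to 0.084 on the log2 scale. HOXD8 ran from 0.22 to 0.56, HOXD9 from 0.13 to 0.33 and HOXC10 from -0.65 to -0.16, the last lowest without NC replicate 3 and closest to 0 without siPrp19 replicate 3. The median over HOX genes ran from -0.02 to 0.08. The cause was not tested. Depth limits the 30 HOX genes under 1 FPKM.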
